A study of Rattus norvegicus with 119 samples.

Results

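The genes described here encode brain-derived neurotrophic factor (Bdnf), neurotrophin 3 (Ntf3) and 3 neurotrophin receptors, TrkB (Ntrk2), TrkC (Ntrk3) and p75NTR (Ngfr). They were taken as probe sets whose only gene symbol was one of these names, which gave 1 probe set for each of the 5 genes among the 14506 gene symbols measured. All 5 entered every fit, since no filter on low values was used. Hippocampal RNA of 96 lead-exposed and 23 control rats was hybridised to Affymetrix Rat Gene 1.0 ST arrays, with 1 array per animal. The 3 strains, named Long Evans, Fischer and Sprague Dawley in the labels, each held 5 treatments in females and males. Perinatal groups came from dams that ate chow with lead acetate at 250 or 750 ppm, starting 10 days before breeding and ending at weaning. Postnatal groups had the same chow at 250 or 750 ppm between birth and postnatal day 45, and control groups had chow without lead. All animals were on control chow at the end, and tissue was taken on postnatal day 55. Each of the 30 groups by strain, sex and treatment held 4 animals, apart from 3 Sprague Dawley male controls. Litters were not given, so p-values measure the spread between these animals, some of which may share a dam.

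Neurotrophins are secreted growth factors made as longer precursors that proteases cut to the mature form. BDNF acts mainly through the receptor tyrosine kinase TrkB and neurotrophin 3 mainly through TrkC, and both then signal through the MAP kinase, PI3 kinase and phospholipase C gamma routes. The precursors bind p75NTR together with sortilin. In the hippocampus, BDNF is known for its release with neuronal activity and for its part in synaptic plasticity and memory. Neurotrophin 3 is best known there in the dentate gyrus, and TrkB is made by neurons and, as a truncated receptor, by astrocytes. In the forebrain p75NTR is known chiefly from basal forebrain cholinergic neurons, which project to the hippocampus.

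The Bdnf gene has many promoters, each with its own first exon. A variant cAMP response element at one of them is a known site of activity-dependent transcription, and the array holds a single Bdnf probe set that does not tell these transcripts apart. Upstream sequences from RefSeq (build GRCr8) were available for 2 of the 5 genes, with 6 starts for Bdnf on chromosome 3 and 3 for Ntf3 on chromosome 4. A pair of the Bdnf starts and a pair of the Ntf3 starts lie so close together that their windows largely overlap, so the windows are not all separate sequence. The 150 bases before 3 of these starts are shown, to give the place of this element in Bdnf beside a window of Ntf3. The Bdnf windows shown are the 2 of 6 that hold a match, and those without it are left out. The sequences shown are thus no comparison of the promoters of both ligands. Capitals mark a match to TCACGTNA on either strand.
Bdnf, first start shown, chr3:116619483-116619632 (plus strand): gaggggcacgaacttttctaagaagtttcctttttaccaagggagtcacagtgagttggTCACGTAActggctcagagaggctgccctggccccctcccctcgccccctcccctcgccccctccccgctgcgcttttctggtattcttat
Bdnf, later start, chr3:116637708-116637857 (plus strand): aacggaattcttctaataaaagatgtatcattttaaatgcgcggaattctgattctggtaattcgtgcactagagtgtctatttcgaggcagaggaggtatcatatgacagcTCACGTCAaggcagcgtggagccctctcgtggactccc
Ntf3, chr4:160670624-160670773 (minus strand): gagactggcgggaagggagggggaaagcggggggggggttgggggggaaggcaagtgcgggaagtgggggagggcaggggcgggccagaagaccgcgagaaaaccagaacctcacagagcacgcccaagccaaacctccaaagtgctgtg
In the 250 bases before a start, TCACGTNA on either strand was found in 2 of 6 Bdnf windows and in 0 of 3 Ntf3 windows. It was found in 455 of 33469 windows of all genes, or 1.36%. The element was searched because it is known from a Bdnf promoter, so its count in Bdnf is no test of enrichment. The matches begin at positions -91 and -38 relative to their starts. The consensus element TGACGTCA was in 0 of 6 Bdnf and 0 of 3 Ntf3 windows, against 1.59% of all windows. The EGR motif GCGTGGGCG was also in 0 of the 9 windows, against 0.478% of all. Both strands were searched for each motif, and a match is a run of letters, not a shown binding site. The shown Bdnf windows had a GC content of 58% and 45.3%, and the Ntf3 window 66.7%. Ntrk2 lies on chromosome 17, Ntrk3 on chromosome 1 and Ngfr on chromosome 10 of the same build.

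Array medians lay between 7.36 and 7.57 (log2), and correlations of array pairs between 0.979 and 0.997. The levels of Eif2s3, Ddx3x and Pbdc1, which part the sexes, went against the sex label in 8 arrays, 3 of Long Evans and 5 of Sprague Dawley. Within each group the animals were also parted into the upper and the lower numbers of their labels, because many probe sets differed between these sets in Fischer rats. Markers of dentate gyrus, CA1 and CA3 neurons were present in all strains, with medians of their mean log2 levels between 8.61 and 9.93. Choroid plexus markers, which stand for tissue next to the hippocampus, ranged from 6.89 to 11.2 over all arrays. The number of arrays limited the precision. All levels and differences below are log2 values, and levels of different genes are not compared because each probe set has its own scale.

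Lead exposure gave no called change in any of the 5 genes. Each of the 24 exposed groups was set against the controls of its strain and sex, with 4 exposed groups sharing the same controls. Tests were two-sided moderated tests of limma, and a probe set was called at a Benjamini-Hochberg adjusted p under 0.05 over all 29214 probe sets of a contrast. Of 120 tests of the 5 genes, 0 were called and 9 had an unadjusted p under 0.05. Over all probe sets, 0.0175% of these tests were called. In Long Evans females the share was 0.0103% after perinatal 250 ppm, 0.133% after perinatal 750 ppm, 0.0171% after postnatal 250 ppm and 0.0103% after postnatal 750 ppm. In Long Evans males it was 0.0411%, 0.0548%, 0.024% and 0.0479% in the same order. In Fischer rats it was 0.0137% in males after postnatal 750 ppm, 0.00342% in females after perinatal 250 ppm and 0 in the other groups. In Sprague Dawley males it was 0.0274%, 0.0103%, 0.0137% and 0.0137% in the order above, and 0 in females. The differences lay between -0.20 and 0.24, their 95% confidence intervals between -0.41 and 0.41, and the lowest adjusted p was 0.54. The 4 exposed groups of a strain and sex shared controls, so a run of differences in one direction is not independent. In bulk tissue, fewer cells of a type and less RNA per cell cannot be told apart.

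**Figure D1:**
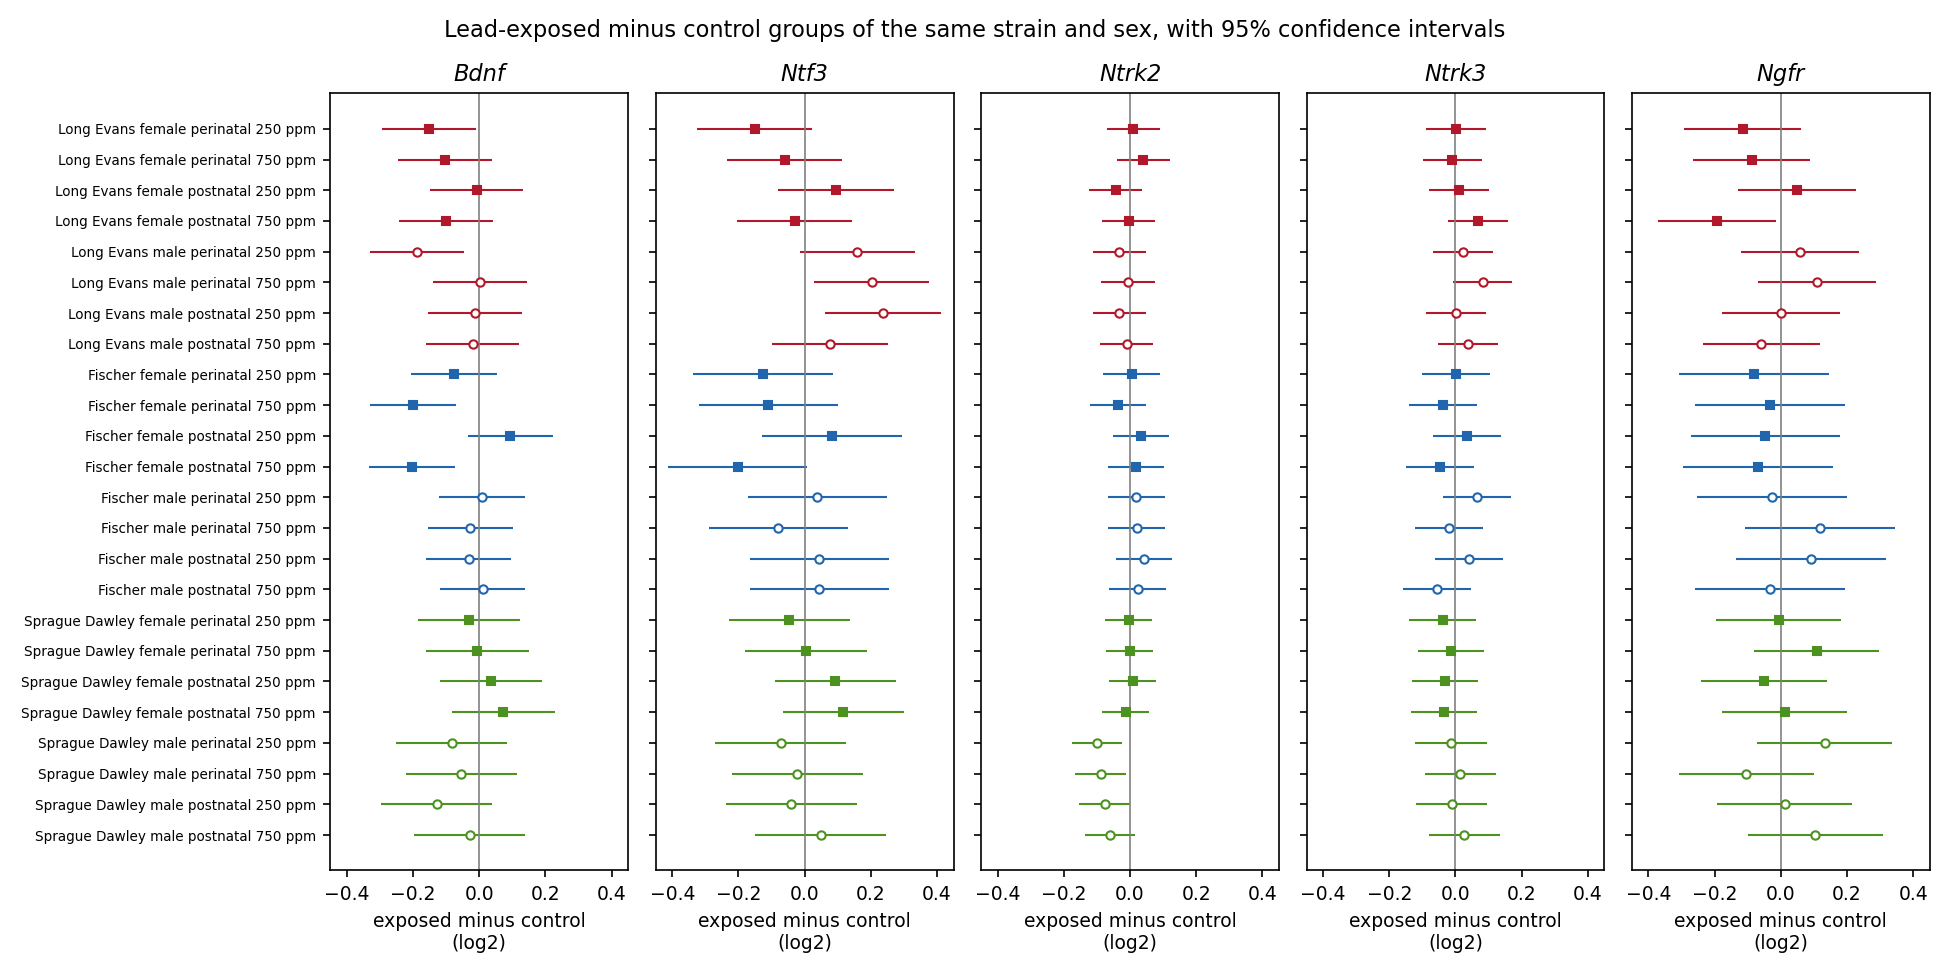
Log2 difference between each exposed group and the controls of its strain and sex (horizontal axis) for the 5 genes, with 95% confidence intervals from limma; each row is 1 of 24 contrasts, with filled squares for females and open circles for males. All differences lie between -0.20 and 0.24, and 0 of the 120 passed the adjusted threshold.

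Bdnf, the activity-regulated ligand of TrkB, had its lowest group mean in Long Evans males given 250 ppm perinatally. Their levels were 7.60, 7.64, 7.58 and 7.70, against 7.87, 7.74, 7.80 and 7.86 in the male controls. The groups did not overlap, yet the difference of -0.19 ± 0.07 (SE, n = 4 each) was not called (limma adjusted p = 0.54). How many of all probe sets also parted these groups was not counted, and 0.0411% were called. The group was picked as the lowest of 30 group means, so the gap is given as a description only. Without the Long Evans male control whose array went against its sex label the Bdnf difference was -0.17 (adjusted p = 0.64). Over the alternatives other than leaving out single animals the adjusted p lay between 0.36 and 0.73. With single animals left out it lay between 0.42 and 0.82. Long Evans females with the same exposure had 7.67, 7.94, 7.75 and 7.83, against 7.94, 8.13, 7.75 and 7.98 in female controls. These groups overlapped (-0.15, adjusted p = 0.88). Leaving out the 2 Long Evans female controls against their sex label gave -0.26 (adjusted p = 0.48), in a range of 0.48 to 1 over all alternatives.

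In Fischer females both groups at 750 ppm lay low for Bdnf. After perinatal 750 ppm the levels were 7.69, 7.76, 7.83 and 7.93, and after postnatal 750 ppm 7.69, 7.90, 7.81 and 7.80. The shared female controls had 8.04, 7.84, 8.05 and 8.09. Each difference was -0.20 ± 0.06 (SE, n = 4 each), with unadjusted p = 0.0034 and 0.0031 and a limma adjusted p of 1 for both. The lower dose in Fischer females did not share this position. Levels were 8.06, 7.85, 7.96 and 7.84 after perinatal 250 ppm and 8.05, 8.14, 8.08 and 8.12 after postnatal 250 ppm, and the second of these groups had the highest mean of all 30 groups.

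Averaged over the 8 exposed groups of a strain, Bdnf was 7.81 in exposed and 7.88 in control Long Evans rats, a difference of -0.07 ± 0.04 (SE, limma adjusted p = 0.72). It was 7.90 in exposed and 7.95 in control Fischer rats (-0.05 ± 0.04), and 7.81 in exposed and 7.84 in control Sprague Dawley rats (-0.03 ± 0.05). Of the 15 such means over the 5 genes, 0 were called and 0 had an unadjusted p under 0.05, where 0.0764% were called over all probe sets (Long Evans 0.212%, Fischer 0%, Sprague Dawley 0.0171%). Without the arrays against their sex label the Long Evans mean for Bdnf was -0.12 (adjusted p = 0.48), and over all alternatives it lay between -0.12 and -0.04.

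Ntf3, the ligand of TrkC, lay high in some exposed Long Evans males. Postnatal 250 ppm gave 8.77, 8.56, 8.75 and 8.84, and perinatal 750 ppm gave 8.67, 8.71, 8.71 and 8.70. The male controls had 8.73, 8.20, 8.55 and 8.50, so both groups overlapped them. The differences were 0.24 ± 0.09 (adjusted p = 0.70) and 0.20 ± 0.09 (adjusted p = 0.61; SE, n = 4 each), from limma. The mean over the exposed Long Evans males was 0.17 ± 0.07 (adjusted p = 0.61). Without the male control at 8.20 these Ntf3 differences were 0.14, 0.11 and 0.07. Long Evans females after perinatal 250 ppm had 8.53, 8.38, 8.37 and 8.41, the lowest group mean for Ntf3. The mean difference over both sexes was 0.07 ± 0.05 in Long Evans, -0.04 ± 0.06 in Fischer and 0.01 ± 0.05 in Sprague Dawley rats (SE).

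Ntrk2, which encodes the receptor TrkB, lay slightly low in exposed Sprague Dawley males. Levels were 11.85, 11.78, 11.84 and 11.89 after perinatal 250 ppm and 11.92, 11.85, 11.83 and 11.80 after perinatal 750 ppm. The 3 male controls had 11.95, 11.89 and 11.98. The differences of -0.10 ± 0.04 and -0.09 ± 0.04 (SE, n = 4 against 3) both had a limma adjusted p of 1. Over both sexes the Sprague Dawley mean was -0.04 ± 0.02 (unadjusted p = 0.052), beside -0.01 in Long Evans and 0.02 in Fischer rats.

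For Ntrk3, which encodes TrkC, the mean differences were 0.03 in Long Evans, -0.00 in Fischer and -0.01 in Sprague Dawley rats. Ngfr, which encodes p75NTR, had means of -0.03, -0.01 and 0.03 in the same strains. Its group furthest from controls among Long Evans females was postnatal 750 ppm, with 7.00, 7.45, 7.03 and 7.00 against 7.34, 7.35, 7.12 and 7.44 in controls. The difference was -0.19 ± 0.09 (SE, n = 4 each, limma adjusted p = 1), and 1 animal lay as high as the controls while the other animals lay below all of them.

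**Figure D2:**
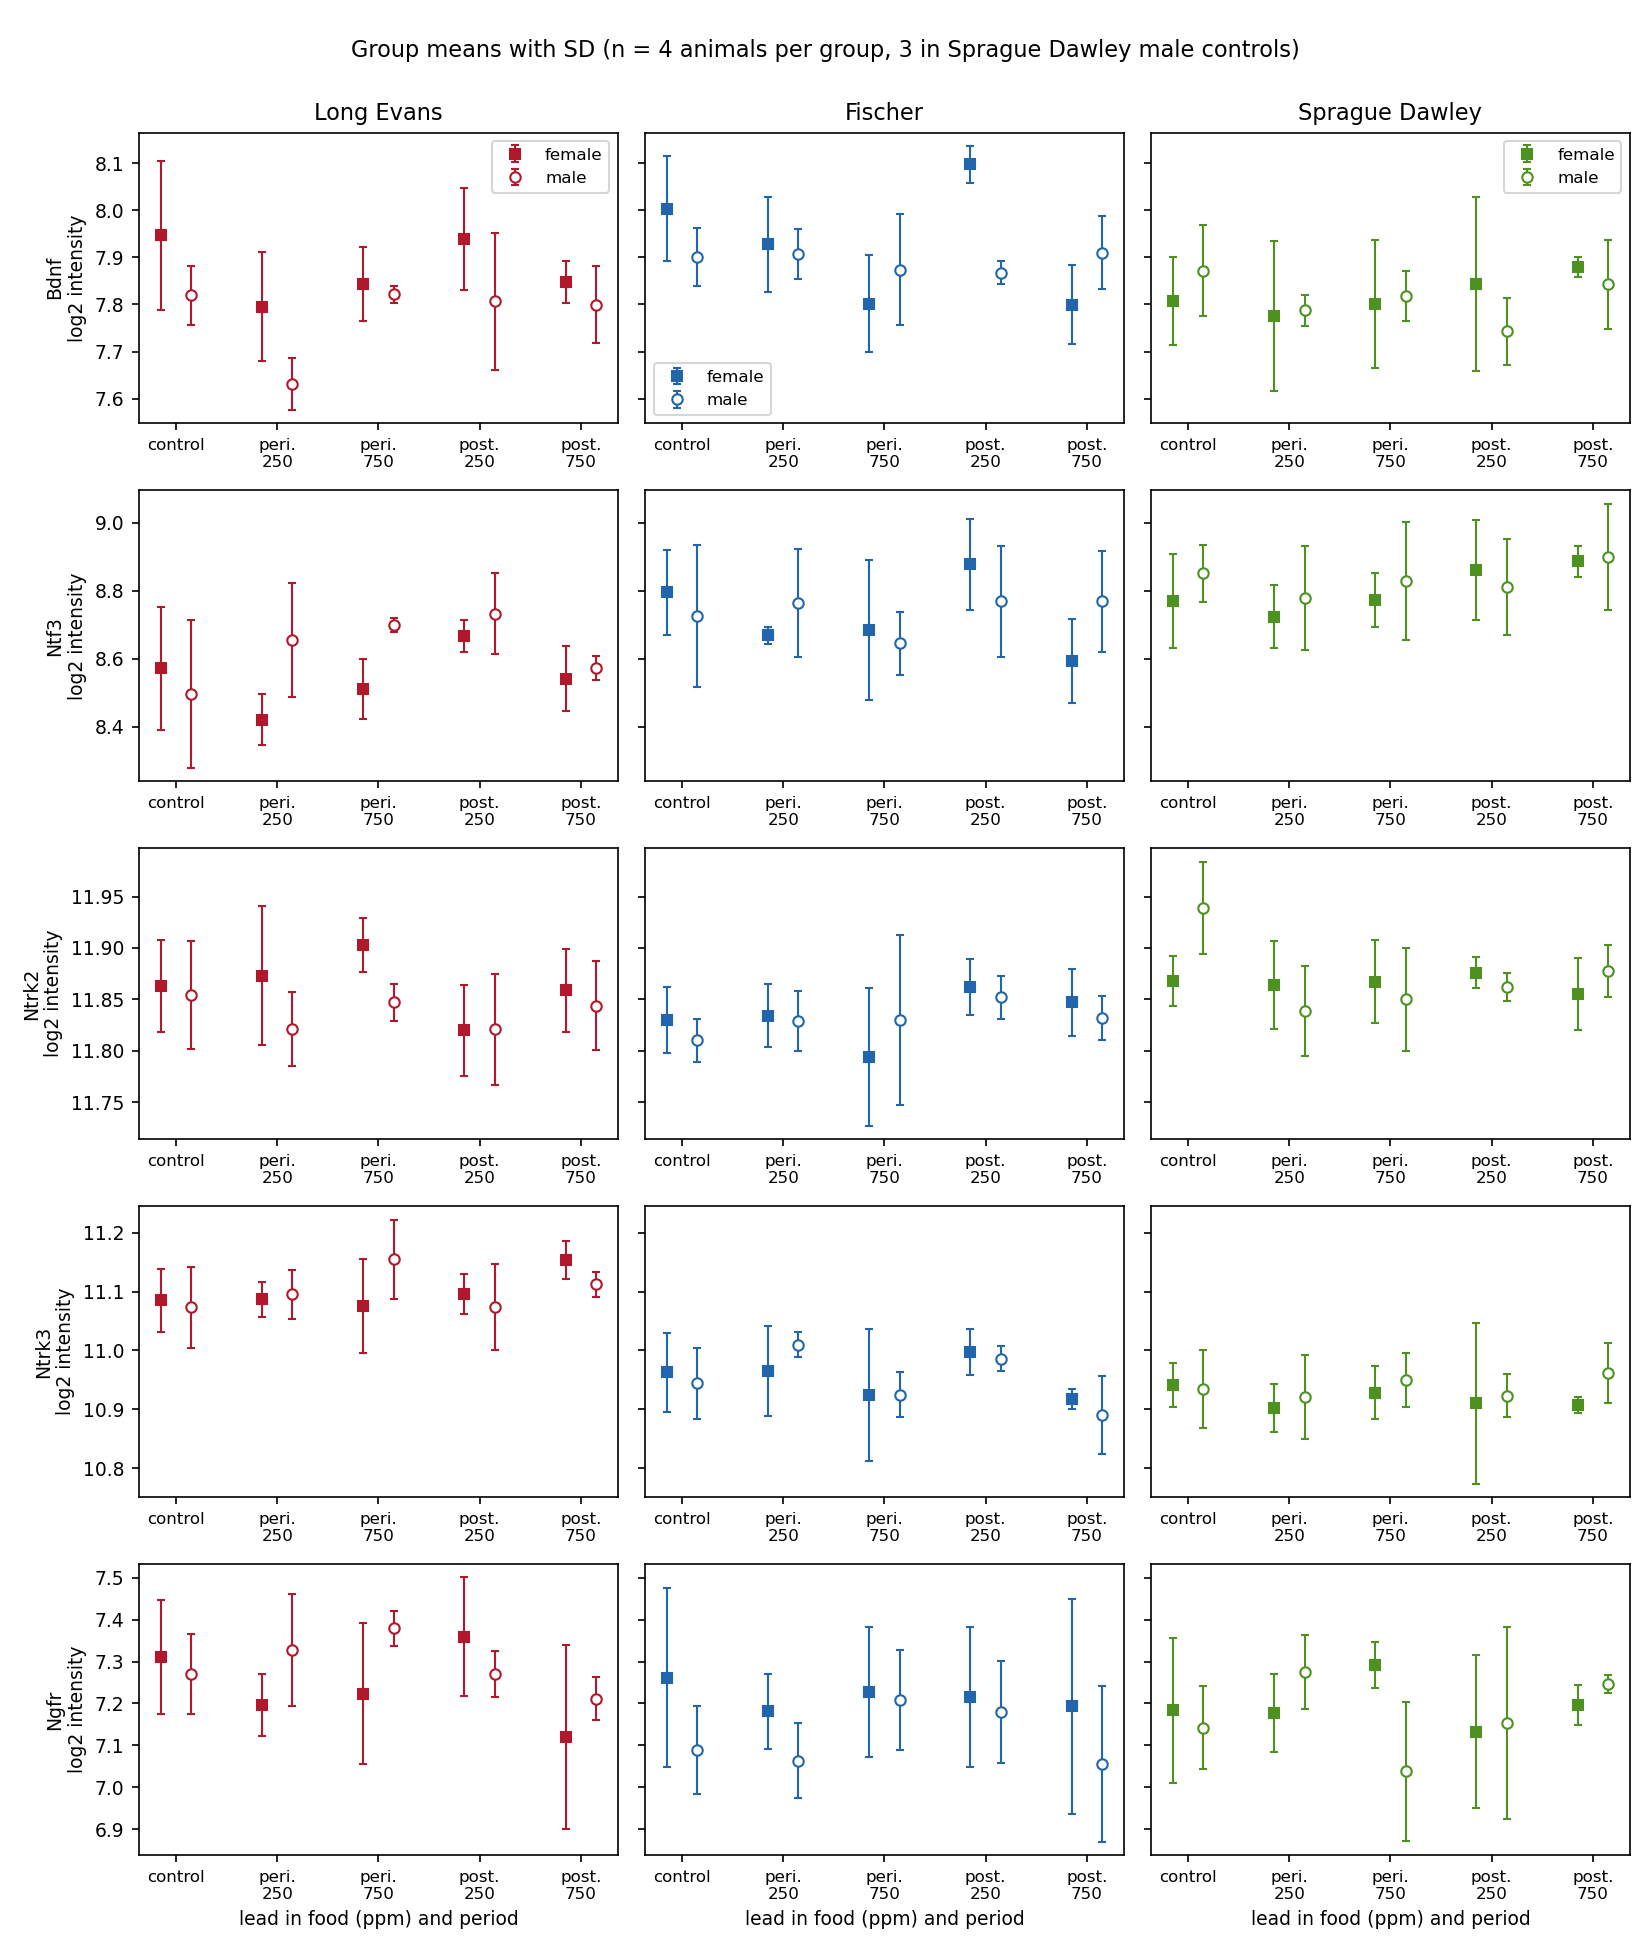
Log2 level (vertical axis, mean ± SD, n = 4, or 3 in Sprague Dawley male controls) of each gene (rows) in each strain (columns), with control, perinatal 250, perinatal 750, postnatal 250 and postnatal 750 ppm along the horizontal axis; filled squares are females and open circles males. Bdnf spans 7.63 to 8.10 over the 30 group means and Ntrk2 11.79 to 11.94.

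The response was also compared by sex, period and dose. Of 90 means by sex, period or dose, 0 were called for the 5 genes and 6 had an unadjusted p under 0.05, with 0.0477% called over all probe sets. In Long Evans rats that share was 0.284% at 250 ppm, 0.127% at 750 ppm, 0.0342% in males, 0.0103% in females, 0.212% after perinatal and 0.113% after postnatal exposure, and it was at most 0.0274% in the other strains. Of 45 contrasts between sexes, periods and doses, 0 were called and 4 had an unadjusted p under 0.05, with 0.027% over all probe sets. In Long Evans rats Bdnf was 0.08 ± 0.03 lower (SE) after perinatal than after postnatal exposure, with a limma adjusted p of 0.39, where 0.065% of all probe sets were called. The strains' mean responses were set against each other in 15 tests, of which 0 were called and 1 had an unadjusted p under 0.05, with 0.073% called over all probe sets. All 15 adjusted p-values were 1.

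Sex differences in level were not called for any of the 5 genes within a strain, with 0 of 30 tests called and 2 with an unadjusted p under 0.05. Over all probe sets 0.0314% were called, with 0.0856% in Long Evans, 0.0822% in Fischer and 0.0171% in Sprague Dawley rats over all treatments. Bdnf averaged 7.87 in Long Evans females and 7.78 in Long Evans males (0.10 ± 0.03, SE, n = 20 each, limma adjusted p = 0.14). Without the arrays against their sex label this was 0.12 (adjusted p = 0.11). The adjusted p-values were 0.10 to 0.15 over the alternatives other than leaving out single animals. They were 0.079 to 0.23 when single animals were left out. Ntf3 was 0.09 lower in Long Evans females than in males (adjusted p = 0.24).

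Fischer rats given 750 ppm differed from those given 250 ppm in activity-induced genes that were listed with the neurotrophin pathway, while Bdnf itself was not called. Against controls, the mean lead response of Fischer rats had 0 probe sets called at 250 ppm and 0 at 750 ppm. At 0 ppm Bdnf ranged from 7.84 to 8.09 (median 7.94, n = 8), at 250 ppm from 7.83 to 8.14 (median 7.90, n = 16) and at 750 ppm from 7.69 to 8.03 (median 7.82, n = 16). The doses overlapped, and 750 minus 250 ppm was -0.10 ± 0.03 (SE, unadjusted p = 0.0026, limma adjusted p = 0.51). With the label-number sets as a block the adjusted p was 0.15, and the difference was -0.08 within the upper and -0.13 within the lower label numbers. By sex, the group means in females were 7.80 after perinatal and 7.80 after postnatal 750 ppm, against 7.93 and 8.10 at 250 ppm. In males they were 7.87 and 7.91 at 750 ppm, against 7.91 and 7.87 at 250 ppm. The pooled difference thus lay in the female groups, and the sex difference in the dose contrast was not tested. Ntrk3 was -0.08 ± 0.03 (adjusted p = 0.66), Ntf3 -0.10, Ntrk2 -0.02 and Ngfr 0.01, all uncalled.

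Of 73 probe sets listed for the neurotrophin pathway (70 genes), 6 were called higher at 750 than at 250 ppm in Fischer rats and 0 lower. This is 8.22% of the list, where 0.0719% of all probe sets were called. The list was chosen with earlier results of these data known, so its share is no independent test. The median over the list was -0.01 and that over all probe sets -0.00. The 6 genes, all named because they were called, are activity-induced transcription factors or effectors. Npas4 was listed as a regulator of Bdnf transcription, and the others among activity-induced and BDNF-responsive genes. A link of their change to BDNF signalling was not tested. Fos, an AP-1 subunit, was higher by 0.44 ± 0.05 (SE, n = 16 each, limma adjusted p = 6e-06), with medians of 7.83 at 0 ppm, 7.51 at 250 ppm and 7.91 at 750 ppm. Arc, an activity-induced synaptic effector, was higher by 0.48 ± 0.08 (adjusted p = 0.0015), with medians of 10.13, 9.94 and 10.39 at the same doses. These medians pool both sexes and periods, and the order did not hold in each group. In Fischer females after perinatal 750 ppm Fos ranged from 7.54 to 7.86, below all female controls (7.90 to 8.02).

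Npas4, an activity-induced regulator of Bdnf transcription, was higher by 0.76 ± 0.14 (limma adjusted p = 0.013). Its medians were 8.45 at 0 ppm, 8.165 at 250 ppm and 9.08 at 750 ppm. Junb was higher by 0.31, Egr2 by 0.35 and Egr1 by 0.30, with adjusted p-values of 0.0063, 0.017 and 0.032. Medians at 0, 250 and 750 ppm were 8.62, 8.45 and 8.73 for Junb and 6.98, 6.74 and 7.02 for Egr2. For Egr1 they were 11.31, 11.11 and 11.38. For all 6 genes the control median lay between those of the doses. All 6 were called at 750 against 250 ppm with the label-number sets as a block. Within the upper label numbers 2 of them were called (Fos and Egr1), and within the lower label numbers 0 were, where Fos was 0.43 (adjusted p = 0.12). The 7 choroid plexus markers also lay higher at 750 ppm in the same animals, by a median of 0.95 with 0 called, and their part in the result was not tested. Long Evans and Sprague Dawley rats had 0 of 73 called in the same limma contrast (8 and 6 with an unadjusted p under 0.05), where 0.0548% and 0.00342% of all probe sets were called. The difference between strains in this contrast was not tested. Label numbers run close together within each group. Treatment and dose therefore cannot be told apart from any session in which the animals of a group were handled together.

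**Figure D3:**
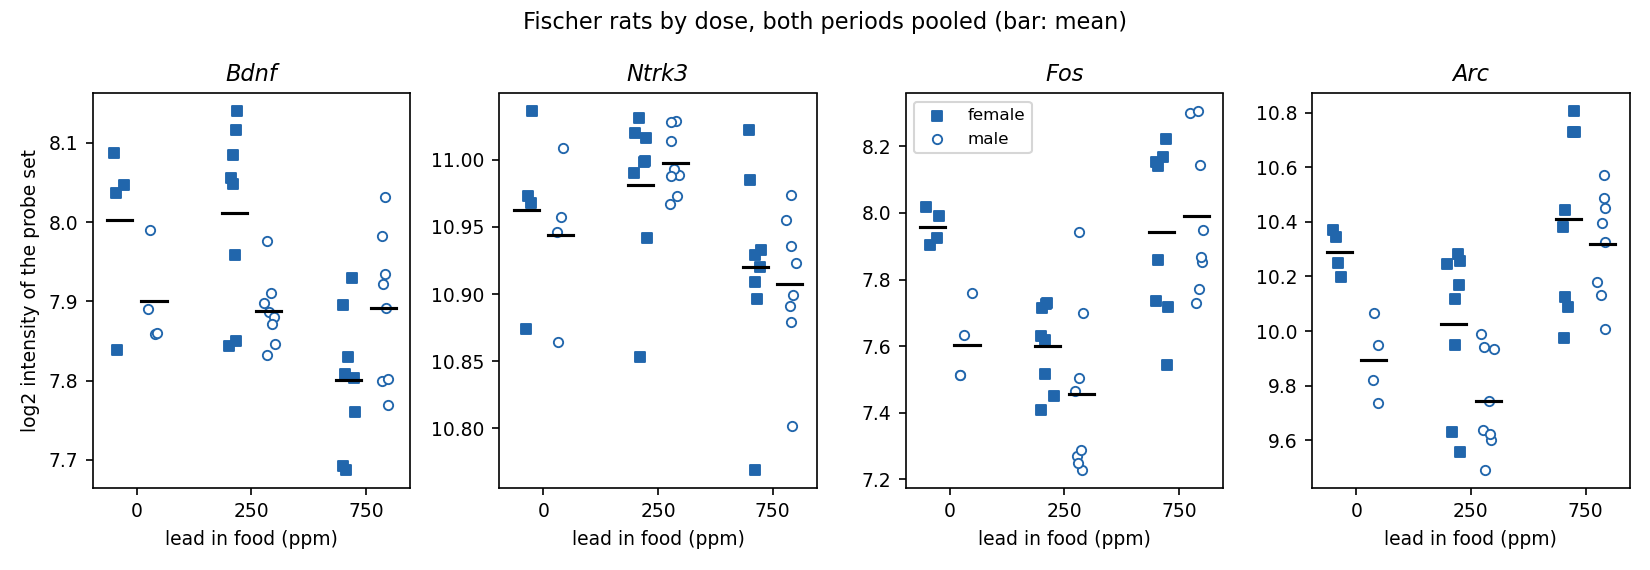
Log2 level (vertical axis) of Bdnf, Ntrk3, Fos and Arc in each Fischer animal at 0, 250 and 750 ppm lead (horizontal axis, both periods together), with females and males marked apart and bars at the mean. Fos and Arc medians are lowest at 250 ppm and highest at 750 ppm, while the Bdnf median is lowest at 750 ppm (7.82).

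In the same 73 probe sets, 1 was called for the mean lead response of Long Evans rats, where 0.212% of all probe sets were called, and 0 in Fischer and 0 in Sprague Dawley rats (2 and 5 with an unadjusted p under 0.05). It was Junb, lower by 0.31 ± 0.07 in exposed animals (SE, limma adjusted p = 0.04). The mean response of Long Evans minus that of Sprague Dawley rats was called for 3 of the 73, where 0.0787% of all probe sets were called. These were Arc (-0.65), Junb (-0.41) and Dusp6 (-0.39), a phosphatase that dampens ERK signalling. The 3 genes were named because they were called. Among controls alone, Long Evans rats were above Sprague Dawley rats by 1.15 for Arc and 0.57 for Junb. They were above Fischer controls by 0.66 and 0.44. Of the 8 Long Evans controls, 3 had arrays against their sex label, and these genes were not refitted without them. What part the control levels have in these calls was not tested. Long Evans minus Fischer and Fischer minus Sprague Dawley had 0 of 73 called for the mean lead response (limma, 10 and 5 with an unadjusted p under 0.05), where 0.13% and 0.0103% of all probe sets were called.

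Each of the 5 genes differed in level between some of the strains, as did a large share of all probe sets. Over all treatments and both sexes, 10 of 15 strain contrasts of the 5 genes were called. Over all probe sets, 61.2% were called in Long Evans minus Fischer, 62.2% in Long Evans minus Sprague Dawley and 40.7% in Fischer minus Sprague Dawley. The 5 genes had 4, 3 and 3 of 5 called in these contrasts, and with so common a difference the calls are not particular to them. Strain cannot be told apart from any run in which the arrays of a strain were handled together.

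Ntrk3 was higher in Long Evans rats than in both other strains. Levels ranged from 10.97 to 11.22 in Long Evans (median 11.11), from 10.77 to 11.04 in Fischer (median 10.97) and from 10.73 to 11.06 in Sprague Dawley rats (median 10.93). Of 40 Long Evans arrays, 35 lay above every Fischer array and 31 above every Sprague Dawley array. How many of all probe sets parted these strains as far was not counted, where 61.2% and 62.2% were called. The counts are thus not shown to be particular to Ntrk3. Long Evans minus Fischer was 0.15 ± 0.01 (SE, n = 40 each, limma adjusted p = 3.1e-16) and Long Evans minus Sprague Dawley 0.17 ± 0.01 (n = 40 against 39, adjusted p = 2.5e-19). Fischer minus Sprague Dawley was 0.02 and not called (adjusted p = 0.17).

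In control animals alone Ntrk3 was also highest in Long Evans rats. Long Evans female controls had 11.16, 11.07, 11.05 and 11.05, and male controls 11.06, 11.03, 11.02 and 11.17. Fischer female controls had 11.04, 10.97, 10.97 and 10.87, and male controls 11.01, 10.86, 10.96 and 10.95. Sprague Dawley female controls had 10.99, 10.91, 10.94 and 10.93, and male controls 10.92, 10.88 and 11.01. All 8 Long Evans controls lay above every Sprague Dawley control, and 6 of 8 above every Fischer control. How many of all probe sets parted these controls likewise was not counted. In these control contrasts 24.5% of all probe sets were called against Sprague Dawley and 25.1% against Fischer rats. The control differences were 0.13 ± 0.03 against Fischer (limma adjusted p = 0.0014) and 0.14 ± 0.03 against Sprague Dawley rats (adjusted p = 0.00064). Without the arrays against their sex label the first lost its call (0.10, adjusted p = 0.051), as it did within the lower label numbers (0.11, adjusted p = 0.065). Over the fits other than those leaving out single animals its adjusted p lay between 0.00025 and 0.065. The second was called in 9 of 9 of these fits, with its highest adjusted p, 0.049, without the arrays against their sex label.

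Ntf3, whose product binds TrkC, was lowest in Long Evans rats. Levels ranged from 8.20 to 8.90 in Long Evans (median 8.59), from 8.42 to 9.03 in Fischer (median 8.72) and from 8.58 to 9.06 in Sprague Dawley rats (median 8.82). Of 40 Long Evans arrays 18 lay below every Sprague Dawley array, and 7 below every Fischer array. Such counts were not made for all probe sets, of which 62.2% and 61.2% were called in these contrasts. The differences were -0.14 ± 0.03 for Long Evans minus Fischer (limma adjusted p = 2.2e-05) and -0.23 ± 0.03 for Long Evans minus Sprague Dawley (adjusted p = 1.1e-10). Fischer minus Sprague Dawley was -0.09 ± 0.03 (adjusted p = 0.012), a call lost without the arrays against their sex label (-0.07, adjusted p = 0.055) and within the upper label numbers (-0.03, adjusted p = 0.50). In controls alone Long Evans rats were 0.23 ± 0.07 lower than Fischer (adjusted p = 0.0071) and 0.28 ± 0.07 lower than Sprague Dawley rats (adjusted p = 0.0016). Both control calls were lost within the lower label numbers, at -0.06 (adjusted p = 0.73) and -0.20 (adjusted p = 0.19).

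Bdnf was higher in Fischer rats than in the other strains, by less than the range within any strain. Levels ranged from 7.58 to 8.13 in Long Evans (median 7.82), from 7.69 to 8.14 in Fischer (median 7.89) and from 7.60 to 8.03 in Sprague Dawley rats (median 7.82). Long Evans minus Fischer was -0.08 ± 0.02 (SE, limma adjusted p = 0.00056) and Fischer minus Sprague Dawley 0.09 ± 0.02 (adjusted p = 0.00036). Long Evans minus Sprague Dawley was 0.01 (95% interval -0.04 to 0.05, adjusted p = 0.77). In controls alone 0 of these 3 limma contrasts were called and 1 had an unadjusted p under 0.05.

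Ngfr was higher in Long Evans rats. It ranged from 7.00 to 7.54 in Long Evans (median 7.27), from 6.90 to 7.54 in Fischer (median 7.17) and from 6.85 to 7.41 in Sprague Dawley rats (median 7.22). These Ngfr medians lay below the lowest array median, 7.36, and signal over background could not be judged. Long Evans minus Fischer was 0.10 ± 0.03 (SE, limma adjusted p = 0.0042) and Long Evans minus Sprague Dawley 0.08 ± 0.03 (adjusted p = 0.017), while Fischer minus Sprague Dawley was -0.02 and not called. Within the lower label numbers both calls were lost, at 0.01 against Fischer (adjusted p = 0.83) and 0.06 against Sprague Dawley rats (adjusted p = 0.23). In controls alone Ngfr was not called between any strains, with Long Evans minus Fischer at 0.12 (limma adjusted p = 0.23). Ntrk2 ranged from 11.76 to 11.93 in Long Evans, from 11.69 to 11.91 in Fischer and from 11.78 to 11.98 in Sprague Dawley rats. Ntrk2 in Fischer minus Sprague Dawley was -0.04 ± 0.01 (SE, limma adjusted p = 0.0026), and -0.08 ± 0.02 in controls alone (adjusted p = 0.016). The first call was lost within the upper label numbers (-0.02, adjusted p = 0.37), and the control call within both the upper (-0.07, adjusted p = 0.17) and the lower ones (-0.10, adjusted p = 0.12). Its other strain contrasts were not called, but a further quantile normalization called Ntrk2 in Long Evans minus Fischer (0.05, adjusted p = 2.4e-05, and 0.09 in controls, adjusted p = 0.0031). Array weights called it in Long Evans minus Sprague Dawley (-0.02, adjusted p = 0.032). In controls alone 5 of the 15 strain contrasts of the 5 genes were called, where 25.1%, 24.5% and 10.5% of all probe sets were called in the 3 contrasts in the order given above.

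**Figure D4:**
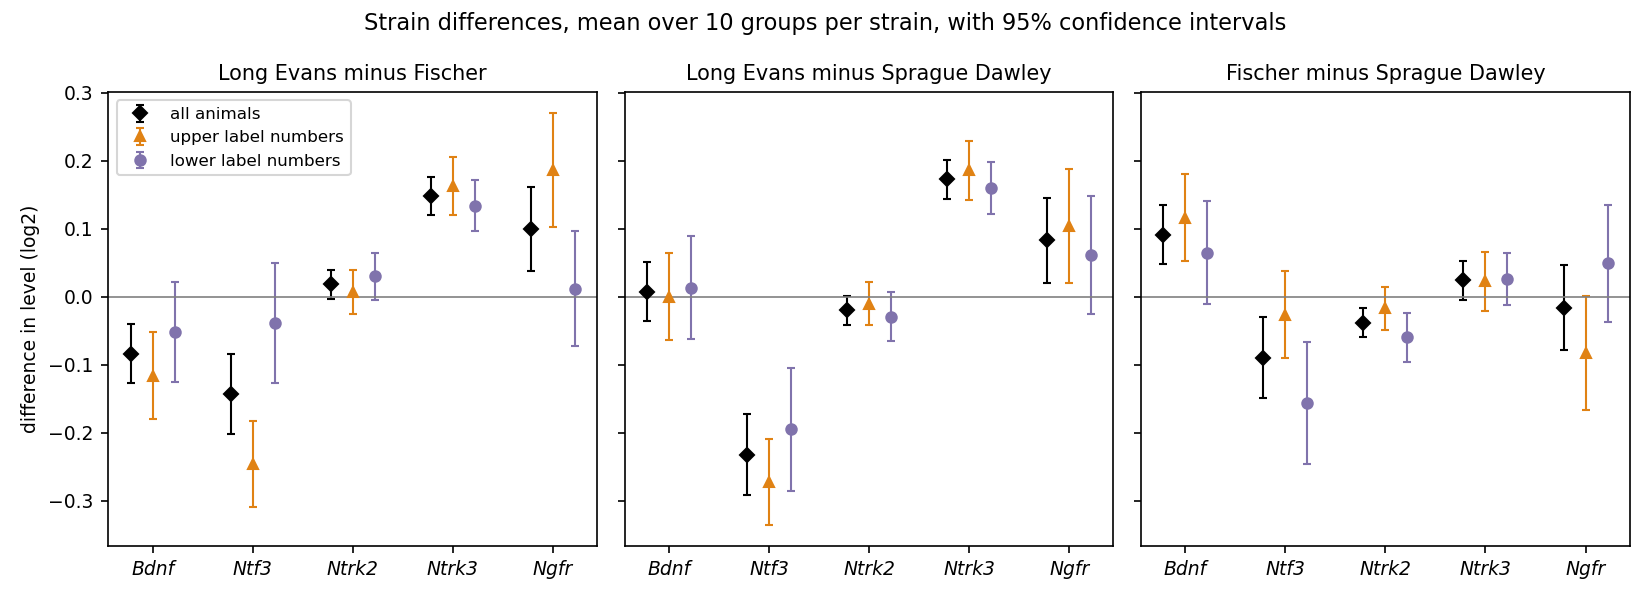
Log2 difference in level between strains (vertical axis, with 95% confidence intervals) for the 5 genes (horizontal axis), over all animals and within the upper and the lower label numbers. Ntrk3 is higher in Long Evans than in Fischer and Sprague Dawley rats in both label-number sets, while the Ntf3 difference between Long Evans and Fischer rats is -0.25 in the upper and -0.04 in the lower set.

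Cell type markers differed between strains as well, and their part in these results was not tested. Over all probe sets 62.2% were called in Long Evans minus Sprague Dawley and 61.2% in Long Evans minus Fischer. Calls of markers are thus not particular to them. Interneuron markers had median levels of 9.90 in Long Evans, 9.77 in Fischer and 9.75 in Sprague Dawley rats, and 4 of 6 were called higher in Long Evans than in Sprague Dawley rats. Astrocyte markers had 11.41, 11.50 and 11.53 in the same strains, with 5 of 6 called lower in Long Evans than in Sprague Dawley rats. Both measured markers of basal forebrain cholinergic neurons, the cells best known for p75NTR, were called higher in Long Evans rats than in each other strain. Their mean level ranged from 6.48 to 7.53 in Long Evans, from 6.26 to 6.93 in Fischer and from 6.23 to 6.72 in Sprague Dawley rats. Its strain medians (6.90, 6.58 and 6.45) lay below the lowest array median, 7.36. Of 7 choroid plexus markers, 0 were called between strains.

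Over the 30 group means, strain set the ends of the order for some genes and not for others. For Ntrk3 the 10 highest groups were all Long Evans, with Long Evans males after perinatal 750 ppm at the top and Fischer males after postnatal 750 ppm at the bottom (10.89 ± 0.07, SD). For Ntf3 the top group was Sprague Dawley males after postnatal 750 ppm (8.90 ± 0.16), and 8 of the 10 lowest groups were Long Evans. For Bdnf the top group was Fischer females after postnatal 250 ppm (8.10 ± 0.04) and the bottom group Long Evans males after perinatal 250 ppm (7.63 ± 0.06), a span of 0.47. Of its 10 highest groups, 7 were Fischer, 2 Long Evans and 1 Sprague Dawley. Ntrk2 spanned only 0.15, between Sprague Dawley male controls (11.94 ± 0.05) and Fischer females after perinatal 750 ppm (11.79 ± 0.07). Ngfr spanned 0.34, between Long Evans males (7.38 ± 0.04) and Sprague Dawley males (7.04 ± 0.17), both after perinatal 750 ppm. Neighbours in the order differed by more than the larger of their SDs in 1 of 29 pairs for Bdnf and 1 of 29 for Ntrk3, and in 0 for the other genes.

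**Figure D5:**
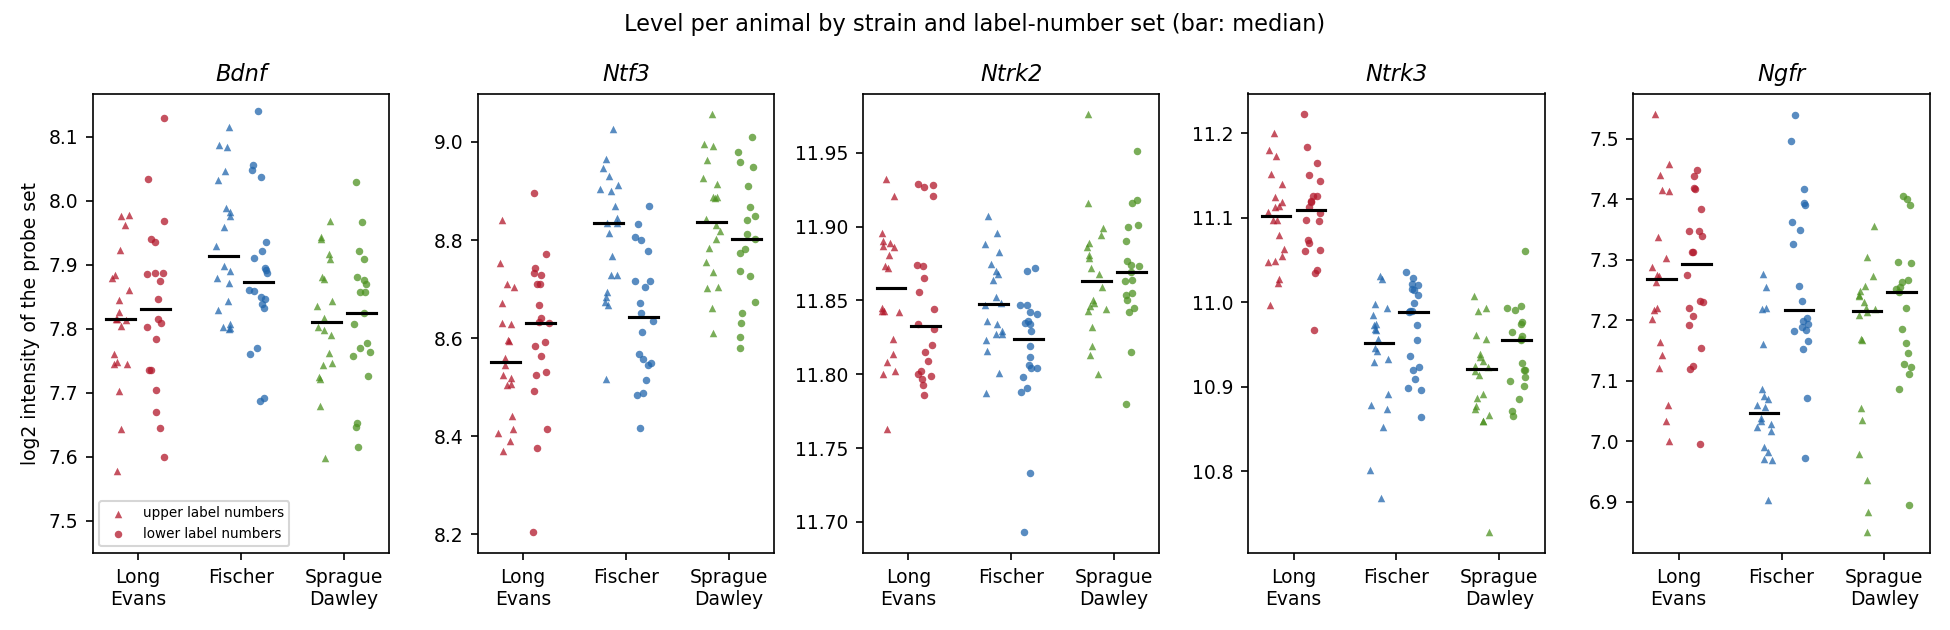
Log2 level (vertical axis) of each gene in every animal, by strain and, within strain, by upper and lower label numbers (horizontal axis), with bars at the median. Ntrk3 lies highest in Long Evans rats, and within Fischer rats Ntf3 lies higher and Ngfr lower in the upper label numbers.

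Within Fischer rats the label-number sets differed for Ntf3 and Ngfr. Ntf3 averaged 8.81 in the upper and 8.65 in the lower label numbers (0.17 ± 0.04, SE, n = 20 each, limma adjusted p = 0.00018). Ngfr averaged 7.07 in the upper and 7.26 in the lower label numbers (-0.19 ± 0.04, adjusted p = 3.6e-05). These were 2 of 5 genes called, where 60.9% of all probe sets were called. Long Evans and Sprague Dawley rats had 0 of 5 called and 0 with an unadjusted p under 0.05, where 0.0993% and 18.9% of all probe sets were called. In the same Fischer contrast 6 of 6 astrocyte markers were called higher, 7 of 7 markers of meninges and fibroblasts lower and 2 of 2 cholinergic markers lower. Their part in the result was not tested.

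Strain differences were also fitted within each set. Within the lower label numbers 5 of the 15 strain contrasts were called, against 10 over all animals. For Ntf3, Long Evans minus Fischer was -0.25 (limma adjusted p = 2.1e-08) within the upper and -0.04 (adjusted p = 0.48) within the lower label numbers. For Ngfr it was 0.19 (adjusted p = 0.00021) and 0.01 (adjusted p = 0.83) in the same sets, and for Bdnf -0.12 (adjusted p = 0.0018) and -0.05 (adjusted p = 0.25). Bdnf in Fischer minus Sprague Dawley was 0.12 (adjusted p = 0.0021) and 0.07 (adjusted p = 0.15). Ntrk3 kept its call against Fischer rats in both sets, at 0.16 (adjusted p = 3.7e-08) and 0.13 (adjusted p = 3.9e-07), and against Sprague Dawley rats at 0.19 and 0.16. Ntf3 in Long Evans minus Sprague Dawley was -0.27 and -0.19, also called in both sets.

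The other genes of the pathway differed between strains in both directions. Of the 73 listed probe sets, 59 were called in Long Evans minus Fischer (37 higher, 22 lower), 58 in Long Evans minus Sprague Dawley (35 higher, 23 lower) and 38 in Fischer minus Sprague Dawley (24 higher, 14 lower). These are 80.8%, 79.5% and 52.1% of the list, beside 61.2%, 62.2% and 40.7% of all probe sets. Over all probe sets, 8125 were called higher and 9744 lower in Long Evans minus Fischer, 8124 higher and 10051 lower in Long Evans minus Sprague Dawley, and 6086 higher and 5798 lower in Fischer minus Sprague Dawley. The medians of the list were 0.05, 0.05 and 0.02, beside -0.01, -0.02 and -0.00 over all probe sets.

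No test of single lists was made. Of 11 regulators of Bdnf transcription, 7 were higher and 2 lower in Long Evans than in Fischer rats. The activity-dependent factor Mef2d was 0.41 higher, the CREB coactivator Crtc1 0.30 and serum response factor (Srf) 0.29. Against Sprague Dawley rats 7 were higher and 3 lower, with Mef2d at 0.54 and Usf2, an E-box factor, at 0.37. Of 22 probe sets for Trk adaptors and kinases, 13 were higher and 5 lower in Long Evans than in Fischer rats. The adaptors Frs3 (0.40) and Sh2b1 (0.24) were higher, and Frs2 (-0.33) and the MAP kinase kinase Map2k1 (-0.21) lower.

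Among 15 activity-induced and BDNF-responsive probe sets, 9 were higher and 4 lower in Long Evans than in Fischer rats. The transcription factor Egr1 was 0.29 higher there and the synaptic pentraxin Nptx2 was -0.37. Against Sprague Dawley rats 9 were higher and 4 lower in Long Evans, with Arc at 0.63, the phosphatase Dusp4 at 0.55 and Egr1 at 0.44. Fischer minus Sprague Dawley had 8 higher and 0 lower, led by the secretogranin Scg2 at 0.62.

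The processing list had 5 of 12 higher and 5 lower in Long Evans than in Fischer rats. The proprotein convertases Pcsk5 (0.23) and Pcsk7 (0.21) were higher, and the plasminogen activator Plat (-0.17) and the sorting enzyme Cpe (-0.14) lower. Of 6 sortilin family members and co-receptors, Sorcs2 was 0.19 and the Nogo receptor Rtn4r 0.17 higher in Long Evans than in Fischer rats, while the Trk partner Kidins220 was -0.15 and sortilin (Sort1) -0.10. Against Sprague Dawley rats Sorcs2 was 0.25, Kidins220 -0.18, Sorcs3 -0.16 and Sort1 -0.11. Among 6 p75NTR adaptors, 1 was higher and 3 lower in Long Evans than in Fischer rats, with Traf6 at -0.15 and necdin (Ndn) at -0.14. Neurotrophin 4 (Ntf4) was called in 0 of the 3 strain contrasts.

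The patterns most like each gene were sought among all other genes as Pearson's correlation over the 30 group means, which share strains and arrays, and are given as a description. Ntrk3 followed Grik5 (r = 0.964), Dscaml1 (0.959) and Wipf3 (0.954). Ntf3 followed Wdr41 (0.867), Slc11a2 (0.865) and Ndufa9 (0.852). Bdnf had Timm17a (0.80), Ntrk2 had Nos1 (0.766) and Ngfr had Tbx6 (0.741) as the closest gene. Over all arrays, after group means and the label-number difference of each strain were subtracted, the closest genes were Fbxo33 for Bdnf (0.57), Emc6 for Ntf3 (0.58), Fam234b for Ntrk2 (0.59), Ryr2 for Ntrk3 (0.712) and Otp for Ngfr (0.658). Between Ntf3 and Ntrk3, the ligand and its receptor, r was -0.619 over the group means and 0.097 over the arrays after that subtraction.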

How the data were processed

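The authors deposited log2 values per probe set of 1-colour arrays, made with RMA and Partek per the submitters' processing notes. Versions, the order of steps and any batch correction are not given in the sources used here. The values covered 29214 probe sets, of which 15310 carried 1 gene symbol, 323 several and 13581 none. Groups came from the labels. Group means were fitted per strain with limma 3.58.1 (R 4.3.3, package data.table in version 1.17.8), and strain contrasts and their label-number splits were fitted over all 30 groups. Tests were two-sided with Benjamini-Hochberg adjustment over all probe sets, called at 0.05. Figures used matplotlib 3.10.9. The contrasts were tested on simulated data. The members and gene lists were chosen with earlier results of these data known. Named pathway genes were those called for a mean lead response and up to 4 called genes with the smallest p-values per list and strain contrast. Other called genes were named after their values were seen, as stated. Alternatives were a further quantile normalization, array weights, a floor for mean level at the 40th percentile, leaving out each animal within a strain, each control animal in strain contrasts, or the arrays against their sex label, and the label-number sets.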

Additional observations from a re-analysis of the deposited data

Results flagged for a closer look

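The difference between upper and lower label numbers was larger in Fischer rats than in the other strains for Ntf3 and Ngfr, by a test of the difference itself in limma. For Ntf3 it exceeded that of Long Evans rats by 0.21 (log2, adjusted p = 0.001) and that of Sprague Dawley rats by 0.13 (adjusted p = 0.044). For Ngfr it was -0.17 against Long Evans (adjusted p = 0.0073) and -0.13 against Sprague Dawley rats (adjusted p = 0.041). Over all probe sets, 43.3% and 55.3% were called in these contrasts of Fischer with Long Evans and with Sprague Dawley rats.

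Single animals stood far from the rest of their group by Dixon's criterion in 9 of 145 tests of a gene in a group of 4, where chance gives about 1 in 20. Bdnf was 7.60 in a Sprague Dawley female after perinatal 750 ppm, with the nearest animal at 7.86. Ntf3 was 8.67 in a Long Evans male after perinatal 750 ppm (nearest 8.70) and 8.52 in another after postnatal 750 ppm (nearest 8.58). Ntrk2 was 11.69 in a Fischer female after perinatal 750 ppm (nearest 11.82) and 11.89 in a Long Evans female after postnatal 250 ppm (nearest 11.80). Ntrk3 was 10.89 in a Sprague Dawley male after postnatal 750 ppm (nearest 10.98). Ngfr was 7.45 in a Long Evans female after postnatal 750 ppm (nearest 7.03), 7.21 in a Sprague Dawley male after postnatal 750 ppm (nearest 7.25) and 7.41 in a Long Evans male control (nearest 7.23).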

How the results depend on the processing

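The lead and sex contrasts of the 5 genes had 0 calls in 14465 values over 128 settings, with a lowest adjusted p of 0.079, for Bdnf in Long Evans females minus males without 1 perinatal 250 ppm male. Leaving out each of the 23 control animals gave 10 to 10 called strain contrasts and 4 to 5 in controls, while exposed animals were not left out of these contrasts. Leaving out each animal of a strain gave 0 to 0 for lead and sex, and 5 to 6 pathway probe sets for Fischer 750 minus 250 ppm. The control call of Ntrk2 in Fischer minus Sprague Dawley was lost without Sprague Dawley male control replicate 3 (adjusted p = 0.064). Within the lower label numbers 5 strain contrasts were called (10 over all animals), and 1 in controls (5 over all). The Fischer pathway contrast had 2 called within the upper and 0 within the lower label numbers. The label-number sets of Fischer rats had 5 called genes after a further quantile normalization (2 without it) and 1 within controls. Under that normalization Ntrk2 in upper minus lower label numbers was -0.037 (adjusted p = 0.024), against 0.034 without it, and the cause was not tested. No paired analysis was possible because animal numbers in the labels are not shared between groups. The Fischer dose contrast was split by label number after the data were seen. The deposited values hold no measure of background, so signal over background could not be judged.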
